A study of Mus musculus with 12 samples.

Results

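Of the 43905 accessible regions found in these bone marrow cells on chromosomes 1 to 19, 1582 lay outside every protein-coding gene and more than 100 kb from the end of the nearest one. These remote regions were chosen by merging the peaks of 12 ATAC-seq peak lists wherever they overlapped by 1 bp or more. A region was kept if its position met the distance rule and if 2 or more lists held a peak in it. The regions called in 2 or more lists numbered 38759 in all: 25161 touched a protein-coding gene body, 12016 lay between genes at 100 kb or less, and 1582 were remote. A further 342 remote regions had a peak in 1 list only and were left out.

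ATAC-seq marks open DNA by the insertion of sequencing adapters by a transposase. The mice were of the C57BL/6 strain, and their CD45.2+ marrow cells were sorted by flow cytometry at 150000 cells per sample. The 4 groups had 3 libraries each: Control (genotype CD45.2(+), with no fusion), and leukaemic cells of genotype BRD9-NUTM1, called BN1, of MLL-AF9, called MA9, and of MLL-ENL, called ME. All 12 shared the strain, the tissue and the CD45.2 mark. How the fusions were introduced, and whether libraries of 1 group came from separate mice, is not given in the sources used here, so the p-values below measure only the spread between these libraries. Because these are bulk samples, fewer cells of a type and less accessibility per cell cannot be told apart.

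Open regions far from genes are often enhancers, DNA elements that bind transcription factors and act on promoters over long distances. Genes that direct development often stand beside wide gene-poor stretches that hold such elements. The antigen receptor loci are also remote by the rule used here, because their V segments are annotated as gene segments and not as protein-coding genes.

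The lists differed in length, and this bears on every count below. Control lists held 25541 to 28023 peaks, MA9 lists 31968 to 33588, ME lists 8546 to 9663 and BN1 lists 3011 to 4258. No read numbers came with them, so the sequencing depth is unknown, and absence from a list cannot be read as closed DNA. Peaks were found in or within 1 kb of 5 of 5 leukocyte genes in every Control and MA9 library, 4 to 5 in ME and 1 to 2 in BN1. Ptprc, which encodes CD45 itself, had 4 peaks in each Control library, 3 in each MA9 library, 1 in each ME library and 0 in each BN1 library. Peaks were present at 4 of 4 B cell genes, 3 of 3 erythroid genes and 4 of 4 neutrophil genes in each Control library. The same lists gave 2, 1 and 2 genes in each MA9 library, 0, 1 and 0 in each ME library and 0, 0 and 0 in each BN1 library. Of 3 T cell genes, Control and MA9 libraries had peaks at 1, Lck, and none at Cd3e or Cd3g. Of 5 endothelial and stromal genes, Control libraries had a peak at 2 to 3, MA9 libraries at 3 to 4, and BN1 and ME libraries at 0. Their part in the differences below was not tested.

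Some remote regions coincide with the start of a non-coding gene, and there the sequence could be read. RefSeq gives, on GRCm38.p6, 300 bases around each gene start (250 before it and 50 after). Of 2014 such windows in remote DNA that belonged to no protein-coding gene, 57 (2.83%) overlapped a remote region, and they touched 51 of the 1582 regions (3.22%). Each of the following windows except the last was chosen within a pattern of calls. It is at the region of highest signal among those considered, which overlapped a start window by 100 bp or more. Remote regions of higher signal that were not considered exist in the patterns of Gm26901, Gm31583 and Gm26947. The last window is at the start of Morrbid, a long non-coding RNA known to restrain the neighbouring cell death gene Bcl2l11 in myeloid cells. Capitals mark matches on either strand to 5 short motifs: TGTGGT for RUNX factors, AGATAA for the GATA family, CCGGAA for ETS factors, GAGGAAGT for PU.1 and TGANTCA for AP-1, where N is any base. No motif contains another, although neighbouring matches may overlap.
Gm26901 start, chr1:7398047-7398346, minus strand, region called in all 12 libraries: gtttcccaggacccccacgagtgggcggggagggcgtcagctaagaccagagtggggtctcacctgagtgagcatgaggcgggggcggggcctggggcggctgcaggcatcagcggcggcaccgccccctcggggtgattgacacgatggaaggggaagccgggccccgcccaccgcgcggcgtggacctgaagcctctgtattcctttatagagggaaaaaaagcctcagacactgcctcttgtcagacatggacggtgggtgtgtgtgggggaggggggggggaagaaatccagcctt
Gm15323 start, chr13:112000759-112001058, plus strand, region called in all Control and MA9 libraries and no other: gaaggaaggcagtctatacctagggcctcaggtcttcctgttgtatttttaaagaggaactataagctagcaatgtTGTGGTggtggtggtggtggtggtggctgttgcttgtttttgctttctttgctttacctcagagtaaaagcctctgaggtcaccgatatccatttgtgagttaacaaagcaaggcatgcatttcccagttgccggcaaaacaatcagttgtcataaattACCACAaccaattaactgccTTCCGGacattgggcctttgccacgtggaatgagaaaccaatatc
Gm31583 start, chr16:24090016-24090315, minus strand, region called in the 3 Control libraries only: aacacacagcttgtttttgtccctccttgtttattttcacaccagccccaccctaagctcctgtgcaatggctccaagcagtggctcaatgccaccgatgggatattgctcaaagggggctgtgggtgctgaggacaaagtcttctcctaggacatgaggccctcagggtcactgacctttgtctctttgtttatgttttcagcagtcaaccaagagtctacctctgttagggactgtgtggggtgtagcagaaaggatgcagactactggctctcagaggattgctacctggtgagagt
Gm26947 start, chr10:60931740-60932039, plus strand, region called in the 3 MA9 libraries only: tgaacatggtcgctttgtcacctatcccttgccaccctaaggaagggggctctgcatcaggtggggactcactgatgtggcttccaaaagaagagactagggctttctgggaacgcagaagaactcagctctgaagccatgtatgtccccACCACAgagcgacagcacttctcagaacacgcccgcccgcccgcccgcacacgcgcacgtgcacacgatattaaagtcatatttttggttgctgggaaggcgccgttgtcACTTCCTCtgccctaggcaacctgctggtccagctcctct
Morrbid start, chr2:128429302-128429601, minus strand, region called in all Control and MA9 libraries and no other: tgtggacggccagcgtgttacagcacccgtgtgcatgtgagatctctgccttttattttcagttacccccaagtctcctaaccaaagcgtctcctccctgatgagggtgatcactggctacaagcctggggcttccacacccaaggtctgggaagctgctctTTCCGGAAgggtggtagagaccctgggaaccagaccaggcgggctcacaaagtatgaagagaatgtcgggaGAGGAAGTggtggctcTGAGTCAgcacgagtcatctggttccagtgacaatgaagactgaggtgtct

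The window called in every library differed from the others in base composition. Gm26901 had 65.7% G and C and 18 CG pairs, and none of the 5 motifs. The windows of Gm15323, Gm31583, Gm26947 and Morrbid had 44.7%, 50.7%, 56.3% and 54.7% G and C, with 4, 1, 14 and 8 CG pairs. Gm15323 held 2 RUNX matches and 1 ETS match, Gm26947 held 1 RUNX and 1 PU.1 match, and Morrbid held 2 ETS matches, 1 PU.1 match and 1 AP-1 match. Gm31583, the Control-only window near Bcl6, held no match. Over all 57 windows at a remote region, 35.1% held the RUNX letters, 15.8% GATA, 15.8% ETS, 8.77% PU.1 and 15.8% AP-1. The shares over all 31365 start windows of the autosomes were 16.7%, 11.2%, 15.1%, 3.25% and 7.85%, and over the 1957 remote windows at no such region 19.7%, 18%, 4.04%, 3.42% and 10.2%. A match is a description of these letters, not a binding site. Median G and C content was 50% in the 57 windows, 44.7% in the other remote windows and 53% over all windows.

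A signal percentile is the rank of a peak among all peaks of its own library, with 100 the highest. Because the lists differ in length, a percentile in a short BN1 or ME list is a higher place from the top than the same percentile in a Control or MA9 list. Percentiles of groups with lists of unlike length are therefore given side by side, and the place of a peak, counted from the highest signal, is given where groups are compared. The Gm26901 region ranked at percentiles 99.3, 98.9 and 99.2 in Control, 81.6, 90.2 and 80.7 in BN1, 96.8, 97.4 and 97.2 in MA9, and 90.4, 92.1 and 85.4 in ME. By place it stood 187th to 291st in the Control lists, 295th to 784th in BN1, 847th to 1086th in MA9 and 757th to 1247th in ME, so the Control places were above those of the other groups. The Gm15323 region, between Map3k1 and Ankrd55, ranked at 96.4, 96.1 and 97.2 in Control and at 85.6, 80.9 and 76.0 in MA9, and by place 797th to 994th against 4853rd to 7760th. The number of remote start windows with a peak was 34 to 39 per Control library, 39 to 46 per MA9 library, 6 to 11 per ME library and 2 to 4 per BN1 library.

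MicroRNA genes gave 1 further set of sequences. Of 100 miRNA hairpins in remote DNA, 4 with a listed mature sequence lay within 5 kb of a remote region. The pair of most interest is Mir29a and Mir29b-1, which are transcribed together between Klf14 and Mkln1 and whose main products share a seed; miR-29 is known to act on DNA methyltransferases and on self-renewal of blood progenitors. The seed, bases 2 to 8, is in capitals in these RefSeq sequences.
mmu-miR-29a-3p, chr6:31062673-31062694, minus strand: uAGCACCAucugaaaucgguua
mmu-miR-29b-3p, chr6:31063025-31063047, minus strand: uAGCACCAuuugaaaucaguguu

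The nearest remote region, chr6:31065456-31065835, began 2.71 kb from the Mir29a hairpin and 2.36 kb from that of Mir29b-1. It was called at percentiles 61.8, 65.2 and 64.4 in the MA9 libraries and in none of the other 9. The other hairpins near a region were Mir7094-1, inside the immunoglobulin heavy chain locus, and Mir6363. The Mir6363 region ranked at 90.9, 89.6 and 91.3 in Control, 80.7, 80.4 and 84.1 in MA9, and 16.6 and 17.9 in 2 of the 3 ME libraries.

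Remote DNA made up a different part of the peak list in each group. This measure uses the position of each library's own peaks and not the rule of 2 lists, so it was tested. Remote peaks made up 2.93%, 2.76% and 3.02% of the Control lists, 1.15%, 1.69% and 1.49% of the BN1 lists, 4.02%, 3.90% and 3.91% of the MA9 lists, and 2.07%, 2.22% and 1.86% of the ME lists. The groups did not overlap: MA9 was highest at 3.94% ± 0.068 (mean ± SD, n = 3), followed by Control at 2.91% ± 0.130, ME at 2.05% ± 0.178 and BN1 at 1.44% ± 0.274. Across the 4 groups of 3 libraries the exact permutation p was 6.49e-05, the smallest that the 15400 possible assignments can give. For the 6 pairs of groups, each exact two-sided permutation test with n = 3 against 3 gave p = 0.10 (adjusted over the 6 pairs, 0.10), which is the smallest value that design allows. The differences of means were 1.04 percentage points for MA9 minus Control, -1.46 for BN1 minus Control and -0.857 for ME minus Control. Remote DNA is 27.3% of the span from the first to the last gene of each chromosome (654 of 2398 Mb), so peaks were sparse there in each group.

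The order changed when the lists were cut to the same length. Among the 3011 peaks of highest signal in each library, remote peaks numbered 26, 30 and 32 in Control, 32, 51 and 45 in BN1, 19, 17 and 22 in MA9 and 28, 28 and 24 in ME. These are 0.974% ± 0.101, 1.42% ± 0.323, 0.642% ± 0.084 and 0.886% ± 0.077 (mean ± SD, n = 3 each), with exact permutation p = 0.000519 over the 12 libraries. MA9, which had the largest remote share over its whole lists, had the smallest share of its strongest peaks there, below all 9 other libraries. BN1 had the largest share, although its library 1 equalled the highest Control library. Counting distance from every annotated gene, non-coding genes and pseudogenes included, left 48 to 59 peaks per Control library, 8 to 9 in BN1, 116 to 129 in MA9 and 26 to 32 in ME. On that definition the mean shares were 0.202%, 0.239%, 0.382% and 0.319%, so BN1 and ME were no longer below Control.

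**Figure D1:**
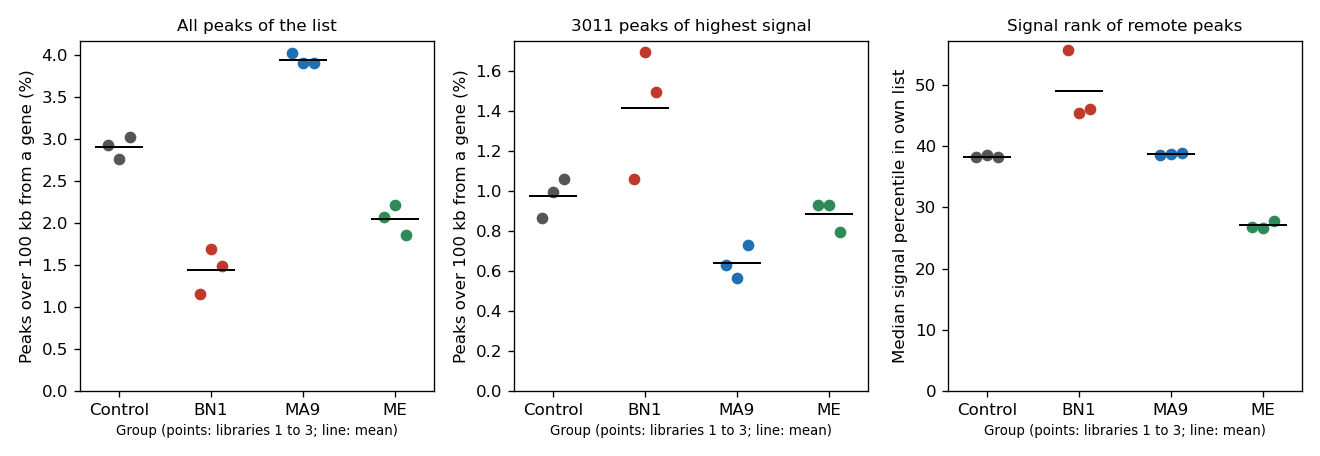
Share of each library's peaks that lie over 100 kb from any protein-coding gene (left, all peaks; middle, the 3011 peaks of highest signal) and the median signal percentile of the remote peaks (right). Points are the 3 libraries of a group and lines are group means; MA9 is highest on the left, at 3.90% to 4.02%, and lowest in the middle, at 0.565% to 0.731%.

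Remote peaks ranked low within their lists in 3 of the 4 groups. Their median signal percentile was 38.2, 38.6 and 38.2 in Control, 38.6, 38.8 and 38.9 in MA9, and 26.8, 26.7 and 27.8 in ME, while the other peaks of each of these libraries had a median of 50.4 to 50.6. In BN1 the remote peaks ranked at 55.7, 45.5 and 46.1, close to the 49.9 to 50.1 of its other peaks. The exact permutation p over the 12 libraries was 6.49e-05, the smallest possible. Within the 3011 peaks of highest signal of each library, the test across the 4 groups missed the threshold (exact permutation p = 0.213). The group means were then 40.4 in Control, 51.5 in BN1, 41.6 in MA9 and 40.6 in ME, so the ME mean no longer lay below Control. The BN1 libraries, at 63.5, 45.5 and 45.5, still lay above the Control (37.9 to 42.2) and MA9 (39.1 to 44.9) libraries. The ME libraries, at 33.7, 37.5 and 50.5, overlapped all of these. Remote peaks were also narrower than other peaks in Control, MA9 and ME: their median width was 0.845 ± 0.015, 0.857 ± 0.019 and 0.861 ± 0.004 times that of the other peaks of the same library (mean ± SD, n = 3). In BN1 this ratio was 0.971 ± 0.079, with 1.06, 0.908 and 0.945 in the single libraries (exact permutation p = 0.0089 over the 12 libraries). Measured from all annotated genes, the width ratio was lower in BN1 (0.885) than in Control (0.956). Among the 3011 peaks of highest signal it was 0.987 in Control, 0.984 in BN1, 0.707 in MA9 and 0.801 in ME (exact permutation p = 0.00162), so the difference of BN1 from Control was not seen at equal list length.

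The remote regions carried fewer calls shared by all groups than accessible regions in general. Only 26 of 1582 (1.64%) had a peak in all 12 libraries, against 6.21% of all regions called in 2 or more lists. The largest class was called in the 3 MA9 libraries and none of the other 9: 516 regions, 32.6%, against 22.1% of all such regions. All Control and all MA9 libraries, with no BN1 or ME library, called 243 regions (15.4%, against 20.4%). The 3 Control libraries alone called 227 (14.3%, against 13.7%), a share near that of all regions. All MA9 and all ME libraries, with no Control or BN1 library, called 39 (2.47%, against 0.761%). Since calls chose the regions, these shares are given without a test, and the longer MA9 lists bear on them. Among the 1582 regions, the overlap of 2 libraries is the share of regions called in both among those called in either. Within groups it averaged 86.7% for Control, 87% for MA9, 72.8% for ME and 58% for BN1. For pairs of a Control and an MA9 library it averaged 29.9%. The rule of 2 lists left out the 342 remote regions with a peak in 1 list only, which raises all these values.

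**Figure D2:**
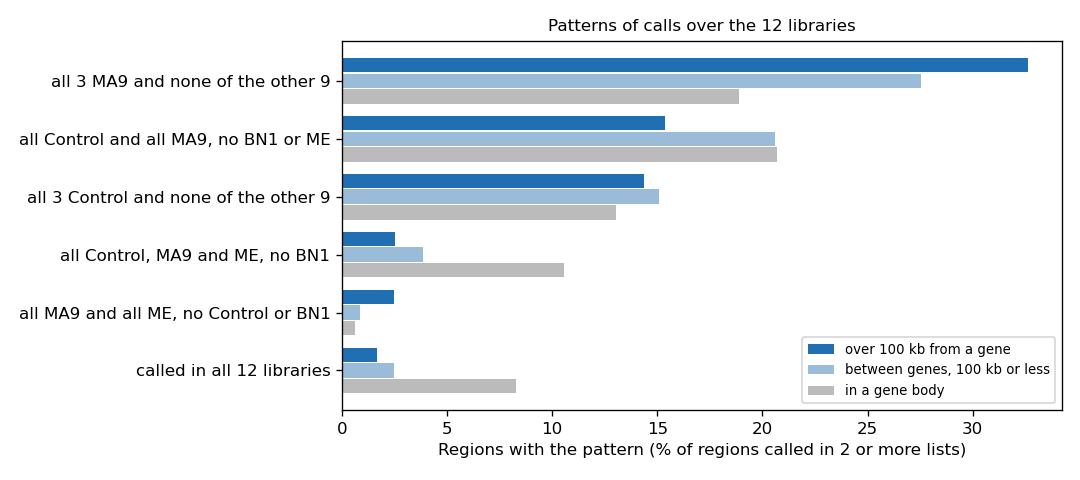
Share of regions with each pattern of calls over the 12 libraries, among regions over 100 kb from a gene (1582), between genes at 100 kb or less (12016) and in a gene body (25161). The MA9-only bar is longest for the remote regions, at 32.6%, and the bar for all 12 libraries shortest, at 1.64%.

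Compared with Control, remote regions were mostly absent from the BN1 and ME lists and both gained and lost in the MA9 lists. A region is called gained where all 3 libraries of a leukaemia and no Control library had a peak, and lost in the opposite case. MA9 gained 584 of the 1582 regions (36.9%), against 23.9% of all regions called in 2 or more lists, and lost 227 (14.3%, against 13.7%). BN1 gained 2 (0.126%, against 0.0929%) and lost 597 (37.7%, against 49.1%). ME gained 46 (2.91%, against 1.03%) and lost 520 (32.9%, against 37.8%). The 3 comparisons share the Control libraries. At equal list length of 3011 peaks the counts fell to 6 gained and 14 lost in MA9, 15 and 11 in BN1, and 13 and 15 in ME, so the size of these counts moves with the length of the lists.

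Whether a Control region was also called in a leukaemia moved with its signal rank. Of the 653 remote regions called in all 3 Control libraries, MA9 libraries called 61.8% ± 0.724, ME libraries 17.2% ± 2.79 and BN1 libraries 6.33% ± 0.468 (mean ± SD over 3 libraries). Among the 88 of them at Control percentiles 75 to 100, MA9 libraries called 84.8%, ME libraries 45.1% and BN1 libraries 23.5%. Among the 152 at percentiles 0 to 25 they called 50.2%, 3.29% and 1.32%. At percentiles 75 to 100, regions in gene bodies were called in BN1 at 44.6% ± 6.44, against 23.5% ± 2.86 for the remote regions, and the ranges of the 3 BN1 libraries did not overlap (38.3% to 51.1% against 20.5% to 26.1%). This class held 5487 regions in gene bodies and 88 remote regions, and ranks within it were not matched. The order was the opposite at percentiles 0 to 25, where each BN1 library called 1.32% of the remote regions (2 of 152) and 0.295% to 0.633% of those in gene bodies, and at 25 to 50, with 2.70% to 3.60% against 0.812% to 1.52%. At 50 to 75 the ranges overlapped, at 5.24% to 6.81% and 2.98% to 6.43%. In the other direction, Control libraries called 40.3% ± 1.57 of the 1026 remote regions called in all 3 MA9 libraries, 51.4% ± 2.07 of those between genes and 69.4% ± 1.33 of those in gene bodies.

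**Figure D3:**
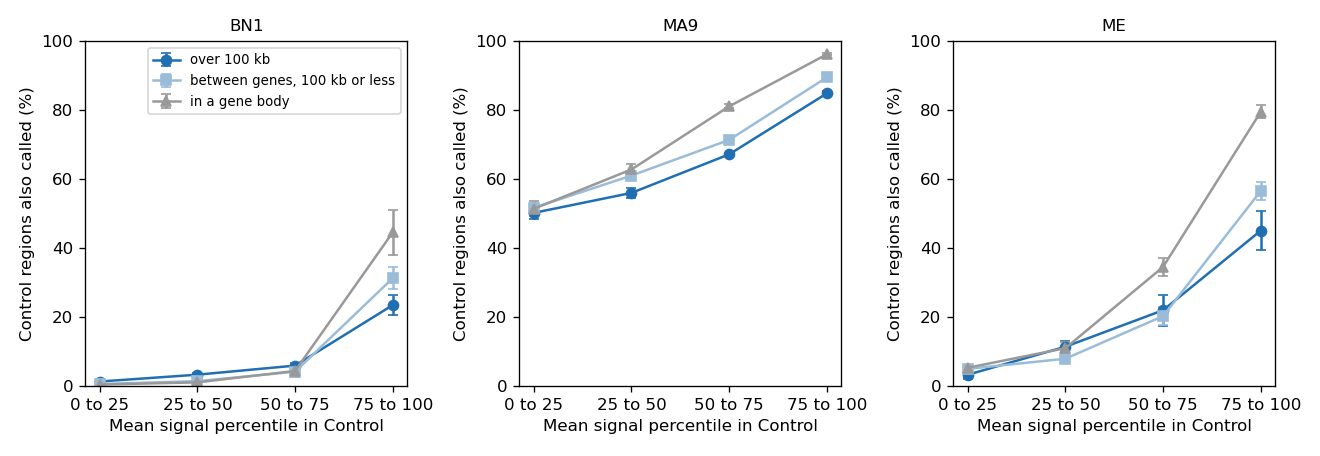
Share of regions called in all 3 Control libraries that each leukaemia also called, by class of mean signal percentile in Control, for remote regions, regions between genes and regions in gene bodies. Points are means and bars SDs over the 3 libraries. At percentiles 75 to 100 the remote regions lie lowest in each leukaemia, at 23.5% in BN1, 84.8% in MA9 and 45.1% in ME. Ranks within a class were not matched.

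The regions called in every library included some of the peaks of highest signal in the data. They were not compared with a list of genome regions where reads map unreliably, so their percentiles are values of these lists and are not read as accessibility. At chr4:80004707-80005261, in the gene desert between Ptprd and Tyrp1, the signal percentile was 99.7 to 99.9 in all 12 libraries. A second region of that desert, chr4:78773626-78774267, ranked at 98.7, 98.8 and 98.9 in Control, at 99.8 in each BN1 library, at 99.4, 99.6 and 99.6 in MA9 and at 99.9 in each ME library. The Control libraries were the lowest there. At chr1:113903889-113904373, between Dsel and Cntnap5a and 1780 kb from the nearest gene, the percentiles were 95.3, 95.7 and 96.0 in Control and 99.5, 99.3 and 99.5 in BN1, with MA9 and ME between. These 3 peaks were narrow for their rank: they were 555, 578 to 641 and 466 to 485 bp wide over the 12 libraries, while the median width of the peaks at percentile 97 or above outside remote DNA was 882 to 1498 bp in the same libraries. The third of them lay just under that percentile in Control. None of the 3 overlapped an annotated gene of any kind. They were taken from the regions called in all 12 libraries, so a call in every list was a condition of their choice. The regions between Gm42163 and Cenpc1 (chr5:84618272-84618755) and between Zfat and Khdrbs3 (chr15:68363000-68364105) had mean percentiles of 95.0 and 94.4.

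A single remote region was called in all 9 leukaemia libraries and in no Control library. It lies at chr19:19750141-19750612, between Rorb and Anxa1 and 623 kb from the nearer, Anxa1, and overlaps no annotation. Its percentiles were 83.6, 84.7 and 83.5 in MA9, 79.0, 80.4 and 78.6 in ME, and 18.6, 69.6 and 57.9 in BN1, where the libraries were far apart. Of all regions called in 2 or more lists, 14 had this pattern. BN1 gained 1 other remote region, at chr10:56879666-56880501 between Gja1 and Hsf2. It ranked at 49.8, 83.1 and 63.9 in BN1 and at 73.0, 75.6 and 67.2 in MA9, and was not called in ME.

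MA9 and ME, the MLL fusions, shared 39 remote regions that were called in no Control or BN1 library. The highest was at chr1:80025847-80026756, between Serpine2, which encodes a protease inhibitor, and Fam124b. It ranked at 87.1, 86.5 and 88.4 in MA9 and at 79.7, 80.4 and 56.9 in ME. A region between Has2 and Slc22a22 (chr15:57037136-57037605) ranked at 70.1, 75.2 and 74.5 in MA9 and at 74.8, 76.9 and 72.9 in ME, so the percentiles were alike, while by place the region stood higher in ME (2220th to 2433rd) than in MA9 (7935th to 10034th). Regions between Anxa2 and Foxb1 and between Cdh8 and Cdh11 had mean percentiles of 86.8 and 84.6 in MA9 and 45.8 and 35.0 in ME. By place these were close: 4005th to 4660th in MA9 and 4885th to 5142nd in ME for the first, and 4846th to 5159th and 5077th to 6860th for the second. In ME alone, the highest was at chr14:92609264-92609841, between Pcdh20 and Pcdh9, at 64.5, 69.6 and 62.4. Of the 39, 15 (38.5%) had a mean percentile of 50 or more over the libraries that called them. Over the 39 regions the median percentile was 41.7, against 34.7 over all 1582. It was 46.5 over the 243 regions called in all Control and all MA9 libraries and no other. These values pool percentiles from lists of unlike length, so they do not compare the strength of the classes.

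The strongest regions seen in MA9 alone stood between genes of varied function. Between Thap1 and Zfp703, chr8:26596378-26597304 ranked at 88.8, 89.1 and 88.5 and chr8:26351618-26352421 at 85.2, 81.2 and 84.6. This interval held 19 remote regions over 544 kb, of which 16 were called in all 3 MA9 libraries and 4 in all 3 Control libraries. Zfp703 encodes a transcriptional corepressor. Regions between Tcerg1l and Mapk1ip1, between Slc7a11 and Noct and between Trpc7 and Spock1 had mean percentiles of 84.6, 84.3 and 82.4 in MA9. High signal was not the rule, since 126 of the 516 regions of this class (24.4%) had a mean percentile of 50 or more, and the median was 35.0. A region between Nox3 and Arid1b (chr17:4626114-4626648) ranked at 99.3 in MA9 library 1 and 94.7 in MA9 library 3. It was not called in MA9 library 2 or any other library. Calls in only 2 MA9 libraries were common, with 169 regions (10.7%), but the 252 regions called in 2 lists had a median percentile of 12.6.

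The strongest region called in Control alone was at chr10:96370712-96371393, 246 kb from Btg1, an antiproliferative gene expressed in resting lymphocytes, with percentiles of 92.0, 92.1 and 93.2. The interval from Eea1 to Btg1 held 21 remote regions, of which Control libraries called 16 to 21, MA9 11 to 13, ME 2 and BN1 1. Next were a region of the immunoglobulin lambda locus Igl (chr16:19178973-19180045; 89.8, 89.1 and 91.1) and one between Nudt4 and Eea1 (89.8, 87.7 and 90.6). Among regions shared by Control and MA9, ranks were higher in Control in each of the 5 strongest; at chr13:111935737-111936890 beside Map3k1, a kinase gene of the JNK pathway, they were 95.1, 95.6 and 95.6 in Control and 78.3, 77.5 and 77.8 in MA9.

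Antigen receptor loci held 76 of the 1582 regions, a grouping made after the calls were seen. The immunoglobulin heavy chain locus Igh, chr12, held 34 over 2488 kb. The Control libraries called 22, 23 and 23, the MA9 libraries 32, 31 and 31, each ME library 1 and each BN1 library 0. Over all 1582 remote regions the Control libraries called 694 to 779 and the MA9 libraries 1152 to 1212. More calls in MA9 were thus general, and both groups called a larger share at Igh. The strongest Igh region, chr12:115165366-115166288 over Ighv8-6, ranked at 65.0, 65.6 and 78.1 in Control and at 64.5, 68.6 and 64.7 in MA9. The percentiles overlapped, while by place all Control libraries (6151st to 9631st) stood above all MA9 libraries (10047th to 11926th). The immunoglobulin light chain loci did not follow Igh. Igk held 14 regions, of which Control called 13, 8 and 13, each MA9 library 1, ME 0 to 1 and BN1 0, and Igl held 3, all called in each Control library and in no other library. The T cell receptor alpha locus Tcra held 23, with 20, 18 and 18 called in Control, 13, 12 and 12 in MA9 and 0 in ME and BN1. At Tcrb both regions were called in every Control, MA9 and ME library and in no BN1 library. Beside these counts stand the peaks at B cell genes, 4 of 4 in Control and 2 of 4 in MA9 (Cd79a and Pax5), and at T cell genes, 1 of 3 in each; their part was not tested.

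**Figure D4:**
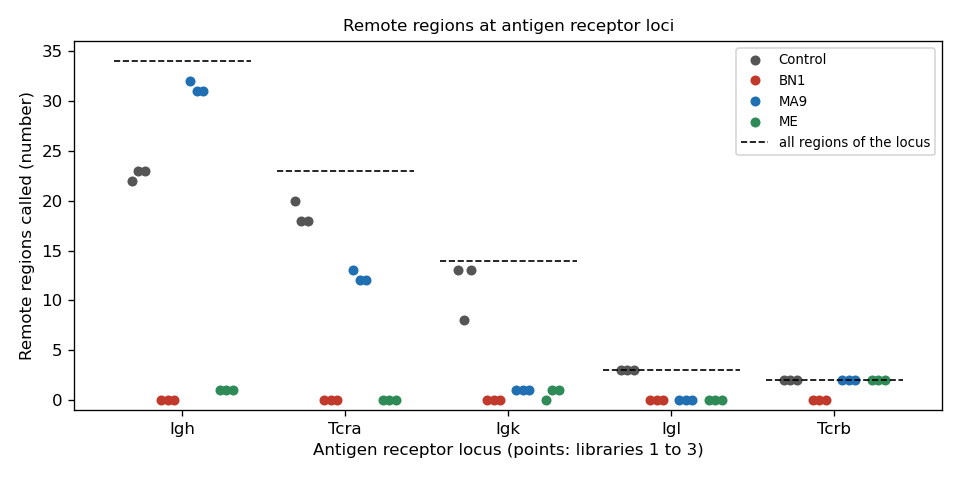
Number of remote regions called in each library at 5 antigen receptor loci, with dashed lines for all remote regions of the locus. At Igh the MA9 libraries (31 to 32) lie above the Control libraries (22 to 23), as they do over all remote regions. At Tcra, Igk and Igl the Control libraries lie above MA9, and the BN1 libraries are at 0 throughout.

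Many genes of blood cell identity bordered a remote region. Of 59 genes in a list of blood cell transcription factors and leukaemia genes, 29 (49.2%) flanked at least 1 remote region, against 919 of 20665 protein-coding genes (4.45%). The list was chosen with earlier results of these data known, so the count is a description. Around these 29 genes lay 190 remote regions: all 3 Control libraries called 85, all 3 MA9 libraries 104, all 3 ME libraries 6 and all 3 BN1 libraries 2. The shares over all remote regions were 41.3%, 64.9%, 8.85% and 1.90%. Calls in Control alone numbered 43 (22.6%) and in MA9 alone 59 (31.1%), and the median percentile was 32.6, against 14.3%, 32.6% and 34.7 for all remote regions.

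Between Myc and Gsdmc, Control and MA9 calls lay at different distances from Myc. Myc encodes the transcription factor that drives growth and proliferation, and a cluster of distant downstream enhancers is known to act on it in blood progenitors and in MLL-AF9 leukaemia. Of the 12 remote regions here, 5 lay over the non-coding gene Pvt1, 116 to 191 kb from Myc. The strongest, chr15:62169204-62170174, ranked at 85.2, 81.5 and 86.7 in Control and was called in no other group. A second, chr15:62181383-62181919, ranked at 69.5, 58.9 and 60.6 in Control alone. The other 7 lay 1507 to 1675 kb from Myc and nearer to Gsdmc, at 110 to 278 kb. All 7 were called in MA9, 5 of them in all 3 libraries. The strongest, chr15:63657873-63658642, ranked at 65.8, 61.9 and 57.7 in MA9 alone. Of these 7, Control library 1 called 1, at percentile 2.57, and Control libraries 2 and 3 called 0; BN1 and ME libraries called none of the 12.

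Beside other factors too, some regions of 1 interval were called in Control and others in MA9. Over all 1582 remote regions, Control libraries called 694 to 779 and MA9 libraries 1152 to 1212, so more calls in MA9 were general. Beside Sox4, a factor of early lymphoid and leukaemic progenitors, 11 regions lay between Prl5a1 and Sox4: each MA9 library called 8 and each Control library 4. The strongest, chr13:28512532-28513313, was Control-only at 79.4, 75.9 and 81.1, and lay 436 kb from Sox4 and 361 kb from Prl5a1. Mef2c, a factor of lymphoid and myeloid progenitors, had 14 regions on the side of Cetn3. The strongest in Control, 437 kb from Mef2c, ranked at 80.9, 79.1 and 81.8 there and was not called in MA9. A region 1430 kb from Mef2c and 276 kb from Cetn3 (chr13:82073369-82073797) ranked at 78.4, 76.5 and 76.5 in MA9 and was not called in Control. Klf4, a factor of monocyte and quiescent cells, had 13 regions, of which MA9 called 11 to 12 and Control 3 to 4. Of the 3 Klf4 regions called in both groups, 2 had opposite orders of rank: 119 kb from the gene the percentiles were 50.9, 34.4 and 35.5 in Control and 71.7, 58.1 and 62.9 in MA9, and 292 kb from it 69.8, 67.9 and 70.5 against 41.8, 31.6 and 34.8. Neither of these overlapped between the groups, by percentile or by place. At the third, 690 kb from Klf4, the percentiles overlapped, at 19.9, 30.0 and 24.2 in Control and 23.6 and 3.52 in 2 MA9 libraries. Runx1, a master factor of blood stem cells, had 11 regions, with 4 to 5 called in Control and 7 to 8 in MA9. The counts beside Sox4 and Runx1 were near the shares over all remote regions.

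**Figure D5:**
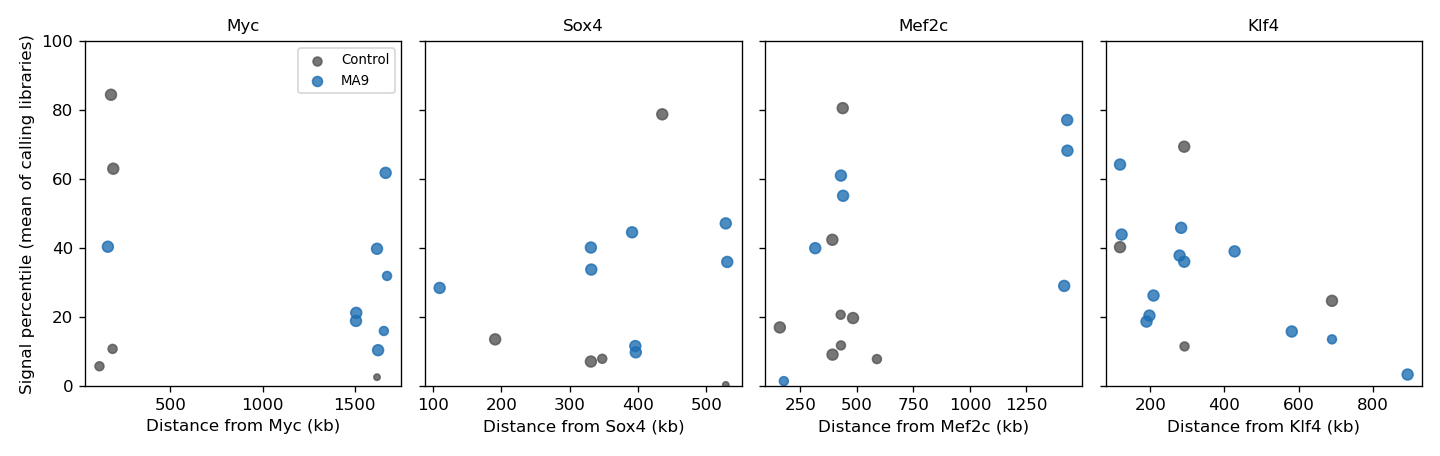
Signal percentile of remote regions (mean over the libraries of a group that call them; dot size grows with 1, 2 or 3 calling libraries) against distance in kb from Myc, Sox4, Mef2c and Klf4. Only Control and MA9 libraries called these regions; beside Myc the Control dots lie at 116 to 191 kb, but for 1 small dot at 1621 kb, and the MA9 dots at 1507 to 1675 kb, but for 1 at 162 kb.

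Other factors had calls mainly in 1 of the groups. Id2, an inhibitor of basic helix-loop-helix factors needed for several lymphoid and myeloid cells, had the most regions of the list, 25, of which Control called 19 to 22, MA9 11 to 12, ME 1 to 2 and BN1 0 to 2. Of these, 10 were Control-only and 2 MA9-only. One region, chr12:25389066-25389762, was called in all Control, MA9 and ME libraries and in 2 BN1 libraries, at 71.8, 73.1 and 75 in Control, 84.6, 84.2 and 83.9 in MA9, and 74.8, 77.0 and 63.3 in ME. Its 2 BN1 peaks were at percentiles 31.7 and 35.1, which in those short lists are places 2058 and 2227; the Control places were 6881 to 7766. Ets1, a lymphocyte factor, had 3 regions, all Control-only, and Foxo1, a factor of B cell development, had 9, of which Control called 7 to 8 and MA9 2. Satb1 had 4, all called in each Control library and 2 in each MA9 library. On the MA9 side, Bcl11b, a T cell commitment factor, had 6 regions, of which MA9 libraries called 5, 6 and 5 and Control libraries 0. Kit, the stem cell factor receptor, had 3, all called in each MA9 library and 0, 1 and 1 in Control. Mn1, a leukaemia fusion partner, had 1, at 80.7, 79.7 and 81.8 in MA9 alone.

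Lineage genes flanked remote regions less often than the genes of the blood factor list. The shares were 12.5% of B cell, 13.6% of neutrophil and monocyte, 8.33% of T and NK cell and 6.25% of erythroid and megakaryocyte genes. All were above the 4.45% of all protein-coding genes, but each rests on few genes. Of 16 B cell genes, 2 flanked a region. Ebf1, the factor that commits progenitors to the B lineage, had 5 regions 109 to 516 kb away. Each was called in all 3 Control libraries and in no other library. The strongest, chr11:45524478-45525164, ranked at 72.7, 67.2 and 65.9, and lay 516 kb from Ebf1 and 327 kb from Clint1. Foxp1 had 2, both MA9-only. Of 22 neutrophil and monocyte genes, 3 did, led by Ly86, which encodes a partner of the Toll-like receptor homologue CD180. Of the 17 regions around Ly86, MA9 called 13 to 14, Control 7 to 11, ME 2 and BN1 0 to 1. At chr13:37619441-37620674 the percentiles were 92.5, 92.2 and 94.3 in Control, 93.7, 91.8 and 92.0 in MA9 and 58.6, 57.6 and 36.8 in ME, and 1 BN1 library called it at 7.63. Cxcr4, the receptor that holds cells in the marrow, had 7 regions, with 6 called in each Control library, 5 in each MA9 library and 1 in each ME library. Of 12 T and NK cell genes, only Lef1 flanked any. The 2 Lef1 regions were MA9-only, the stronger at 74.4, 74.9 and 74.1.

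Genes of cell adhesion and the nervous system, which stand beside long gene deserts, were chosen as a contrast and were flanked more widely but thinly. Of 31 such genes, 17 flanked 25 remote regions in all. All 3 libraries called 21 of the 25 in MA9, 8 in ME, 4 in Control and 1 in BN1. Over all 1582 remote regions the shares were 64.9%, 8.85%, 41.3% and 1.90%. The counts in MA9 and ME were thus above those shares and the count in Control below. The region called in every library lay between Cdh10 and Cdh12 (chr15:19857052-19857961). It ranked at 57.6, 68.4 and 75.6 in Control, 11.7, 27.9 and 21.7 in BN1, 89.0, 89.2 and 91.5 in MA9 and 84.3, 85.2 and 84.2 in ME. By place it stood higher in every leukaemia library (1350th to 3761st) than in any Control library (6842nd to 11658th). A region between Tbc1d2b and Zic1 ranked at 45.2, 50.5 and 53.3 in Control, 85.1, 86.0 and 85.8 in MA9 and 59.1, 55.8 and 46.4 in ME. Places were not taken for this region. In the shorter ME lists such percentiles are higher places than in Control, so ME is not read as like Control.

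Remote regions were unevenly placed. Chromosome 13 held the most, 179 (9.91% of its regions called in 2 or more lists), and chromosome 17 the fewest, 32; chromosome 7 had the lowest share, 1.31%. Joined where neighbours were under 100 kb apart, they formed 648 stretches. In these, 365 regions (23.1%) stood alone and 76 stretches of 5 or more held 693 regions. The 36 gene-to-gene intervals with 10 or more regions held 543, among them the Igh interval from Adam6a to Zfp386 (32), Id2 to Rnf144a (25), the Tcra interval from Gm36448 to Dad1 (23) and Eea1 to Btg1 (21). In the interval from Bcl2l11 to Spdye4c, which contains Morrbid, Control called 11 of 19 in each library, MA9 15 to 19, ME 0 to 1 and BN1 0.

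The share of regions called in Control or MA9 varied little with distance. The median distance to the nearest gene was 175 kb, from 100.1 kb to 1812 kb: 941 regions lay at 100 to 200 kb, 484 at 200 to 500 kb, 118 at 500 to 1000 kb and 39 beyond. All 3 Control libraries called 42.7%, 38.4%, 43.2% and 35.9% of these classes, and all 3 MA9 libraries 64.8%, 65.3%, 64.4% and 61.5%. Calls in all 12 libraries made up 1.17%, 1.65%, 4.24% and 5.13%, which rest on 11, 8, 5 and 2 regions. The farthest, chr5:59996615-59997051 between Pcdh7 and G6pd2, ranked at 52.2, 51.5 and 59.3 in MA9 alone. Near the limits of the rule, the 3 regions just inside lay at 100.109, 100.11 and 100.143 kb and the 3 just outside at 99.971, 99.835 and 99.814 kb, and the 252 regions called in 2 lists had a median percentile of 12.6, against 7.15 for the 342 called in 1.

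Of the 1582 regions, 546 (34.5%) overlapped an annotated non-coding gene, gene segment or pseudogene, and 450 overlapped 1 of 264 long non-coding RNA genes. All 3 Control libraries called 51.6% of the 546 and 35.8% of the 1036 regions over no annotation, while all 3 MA9 libraries called 62.1% and 66.3%. Gm13986 and Morrbid covered the most regions, 12 each. Over Gm13986, between Rasgrp1 and Thbs1, Control libraries called 9 to 10, MA9 8 to 10, ME 1 to 3 and BN1 0. Over Morrbid, Control called 7 in each library, MA9 10 to 12, ME 0 to 1 and BN1 0; at its start, whose sequence is given above, the percentiles were 46.4, 73.9 and 75.2 in Control and 29.8, 25 and 32.9 in MA9. The Morrbid start thus ranked higher in each Control library than in any MA9 library, while more of the regions along the gene were called in MA9.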

How the data were processed

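The deposited data were 1 peak list per library in narrowPeak layout, on mouse build GRCm38 (mm10). The submitters' processing notes name Genrich without a version, Bowtie2 2.5.4, deepTools 3.5.1 and Picard 3.2.0; options are not given in the sources used here. The deposited signal, read here as Genrich's area above its threshold because it was never below 200.0, was used only as a percentile within a library. The deposited score and the authors' −log10 p and −log10 q columns were not used.

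Peaks of chromosomes 1 to 19 were merged and measured against protein-coding genes of a RefSeq table (GRCm38.p6). The 1 to 46 peaks per list on other sequences were left out. Position-only shares, signal percentiles and width ratios were tested by exact permutation over the libraries (threshold 0.05), also between the 6 pairs of groups; counts of calls had no test. Alternatives were distances of 50 and 200 kb, all annotated genes, signal at least 2 times the lowest, covered bases, summits, equal lengths, merging at 50% overlap, 3 lists, 1 library left out and a replicate block. Equal length for percentiles and widths was added after the data were seen. The methods were tested on simulated data. Python 3.11.15, NumPy 2.4.6 and pandas 2.3.3 were used.

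The regions, gene lists and motifs were chosen with earlier results of these data known. Regions are named by a rule: the 5 of highest mean percentile in each pattern of calls, gene list and non-coding overlap, the 5 farthest, and those in the 5 stretches and intervals with most regions. Other regions of the intervals beside Myc, Sox4, Mef2c, Klf4 and Id2, the start windows and the miRNAs were chosen after their values were seen. Some results that the rule names are not reported here. Replicate numbers did not pair the samples.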

Additional observations from a re-analysis of the deposited data

Results flagged for a closer look

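The remote share of peaks moved in opposite directions from Control in different leukaemias. Every MA9 library lay above every Control library (mean difference 1.04 percentage points), and every BN1 library (-1.46) and ME library (-0.857) lay below. At equal list length the order of BN1 and MA9 was the opposite, with mean shares of 0.974% in Control, 1.42% in BN1, 0.642% in MA9 and 0.886% in ME. The median signal percentile of remote peaks also split: every BN1 library lay above every Control library (10.8 percentile points on average), as did every MA9 library by a small margin (0.445), and every ME library lay below (-11.2). With signal of at least 2 times the lowest, the mean median percentiles were 35.5 in Control, 35.0 in MA9 and 36.1 in ME, so MA9 then lay below Control and ME above it. MA9 also lay below Control at 200 kb (36.6 against 37.8) and with all annotated genes (35.2 against 46.0), and ME (40.6) was close to Control (40.4) at equal list length. These oppositions were read from the ranges of the libraries, and the difference between the effects was not tested.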

How the results depend on the processing

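The 4-group results kept their direction and their side of the threshold under the alternatives, where these were run, except as follows. These were distances of 50 and 200 kb, signal of at least 2 times the lowest, covered bases and summits. Differences between pairs kept their direction with the exceptions below. Their p could not cross the threshold, since the smallest possible was 0.10. With all annotated genes as the reference, the equal-length share of BN1 minus MA9 (0.122 percentage points, exact permutation p = 0.0979, against 0.000519 as reported) missed the threshold, the width ratio of BN1 minus Control turned to -0.0712, and the remote share of BN1 minus Control and of ME minus Control turned to 0.0367 and 0.117 percentage points. With signal at least 2 times the lowest, ME minus BN1 turned to -0.136 percentage points. The cause was not tested. That signal minimum gave 321 regions lost and 1 gained in BN1, 121 and 348 in MA9, and 292 and 11 in ME. Equal list length gave 11 lost and 15 gained in BN1, 14 and 6 in MA9, and 15 and 13 in ME. Calls in 2 of 3 libraries gave 5 gained in BN1. At equal list length, an alternative chosen after seeing the data, the percentile of BN1 minus ME was 10.9 (exact permutation p = 0.213, against 6.49e-05 as reported) and the width ratio of BN1 minus Control was -0.00327.

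Leaving out 1 library in turn gave 2.35 to 2.63 percentage points for the remote share (MA9 minus BN1), 0.637 to 0.952 at equal length (BN1 minus MA9), 18.7 to 23.8 percentile points (BN1 minus ME) and 0.0816 to 0.158 for the width ratio (BN1 minus Control), with exact permutation p of at most 0.0311. Regions gained in BN1 then numbered 2 to 5. The numbers of the libraries did not pair them: over 2407 regions called in all 12, the correlation of same-numbered libraries was -0.121 to 0.121, and 6 of 12 libraries correlated best with their own number. With the replicate block, exact p was 0.00174 for the remote share, 0.00521 at equal length, 0.00174 for the percentile and 0.0226 for the width ratio, with the same differences of 2.5, 0.775, 22.0 and 0.126, and 0.25 for each pair of groups, the smallest it allows. Of 210 alternative values 189 were labelled as unchanged. That tally holds pairs of groups, whose side of the threshold could not change, and counts, which were judged by size alone. Depth is unknown, so how many calls the shorter lists missed cannot be given.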
